A study of Mus musculus with 12 samples.

Results

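H19 and 9 other imprinted genes, Igf2, Igf2r, Cdkn1c, Grb10, Plagl1, Peg3, Mest, Impact and Snrpn, were followed by RNA-seq in leukaemia cells of the mouse B-lymphoid lineage (B-ALL, B-cell acute lymphoblastic leukaemia). These 10 genes, which the count table lists in capitals as H19, IGF2, IGF2R, CDKN1C, GRB10, PLAGL1, PEG3, MEST, IMPACT and SNRPN, are a named set out of its 24982 gene symbols. H19 was picked because it fell in DKO cells under low glucose, so its values in DKO libraries are a description with no test. Cells of 2 genotypes were sampled after 24 h in either regular or low-glucose medium, with 3 libraries in each of the 4 groups. DKO cells are Bax-/-,Bak-/- and TKO cells are Bax-/-,Bak-/-,Mcl-1-/-, so both genotypes lack Bax and Bak, 2 effectors of mitochondrial apoptosis, and the TKO cells also lack the anti-apoptotic protein MCL-1. The labels give the source as a B-ALL cell line and show 1 line per genotype, so a difference between DKO and TKO cells may belong to the line or to the genotype, and the 2 cannot be told apart. Nothing in the labels ties the 3 libraries of a group to separate cultures, so the p-values describe only how far these samples spread, and that spread may be technical.

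An imprinted gene is expressed mainly from the copy inherited from a single parent. The choice rests on DNA methylation laid down in the egg or sperm at an imprinting control region and kept through later cell divisions. In the mouse, H19, Igf2r and Cdkn1c are expressed from the maternal copy and so is Grb10 in most tissues, whereas Igf2, Plagl1, Peg3, Mest, Impact and Snrpn are expressed from the paternal copy. Many of these genes are high in the fetus and placenta and low after birth, and several act on growth. The libraries do not separate the parental copies, so every value below is the sum over both.

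H19 is a long noncoding RNA and the host of a microRNA, miR-675. On mm10, the build given in the submitters' processing notes, the H19 gene lies on the minus strand at chr7:142575529-142578143, with 3 exon blocks that cover 2460 bases. Both mature forms of miR-675 map inside it, and their sequences (RefSeq, GRCm38.p6) are shown because H19 is their host gene, with the seed, bases 2 to 8, in capitals.
mmu-miR-675-5p: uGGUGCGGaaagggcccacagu
mmu-miR-675-3p: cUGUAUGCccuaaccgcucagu
The seeds of the 5p and 3p forms differ. The 5p form maps to chr7:142577112-142577133 and the 3p form to chr7:142577078-142577099. The Mir675 row of the count table held 0 counts in all 12 libraries, which were made from messenger RNA, a preparation not meant to hold short RNAs.

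Read depth was 45914440 to 56260867 counts per library in DKO cells in regular medium and 35758895 to 46925274 in low glucose, and 25908668 to 30874107 and 22190736 to 42140396 in TKO cells in the same media. Values are given as counts per 1000000 (CPM) of the scaled library total unless another scale is named. Mcl1, the gene deleted in TKO cells, ran from 236.9 to 272.7 CPM in DKO libraries, against 0.1699 to 0.4745 CPM in TKO libraries. All 13 B-lineage markers had counts in every group, with a summed level of 5195 to 5713 CPM. Stromal markers summed to at most 0.07282 CPM and T-cell markers to at most 0.1954 CPM, and the haemoglobin genes were at 0. Myeloid markers moved with the line, summing to 3.678 to 4.534 CPM in DKO libraries and 0.4715 to 1.297 CPM in TKO libraries, with Lyz2 7.29-fold and Itgam 4.09-fold lower in TKO cells in regular medium and Elane at 0 in every group. Erythroid markers summed to 0.2444 to 0.4761 CPM in DKO and 0.1214 to 0.2358 CPM in TKO libraries, most of it Klf1. Within the B-lineage list Dntt was 16.8-fold lower in TKO cells in regular medium (23.8 against 400 CPM) and Rag2 was higher (18.8 against 1.71 CPM). The part of these marker differences in the differences between the lines given below was not tested. Replicate 2 of TKO in each medium and replicate 3 of TKO in low glucose lay farthest from their group means, with a median absolute deviation of 0.069 to 0.075 log2 units against 0.011 to 0.04 in the other libraries.

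Of the 10 genes, 5 had enough counts to be tested, namely H19, Igf2r, Grb10, Mest and Impact. The other 5, Igf2, Cdkn1c, Plagl1, Peg3 and Snrpn, were too low to judge. A gene was tested where it passed a filter with a count minimum of 10 set by group. H19 passed only through the DKO groups and Mest in all 3 libraries of a group only in DKO cells in low glucose, so a difference for each was built into the selection, and no count over the tested genes is support for anything. In one comparison a gene was also held to be too low where no library of either group reached 10 counts, which applies to H19 between the media in TKO cells and to Mest between the lines in regular medium.

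**Figure D1:**
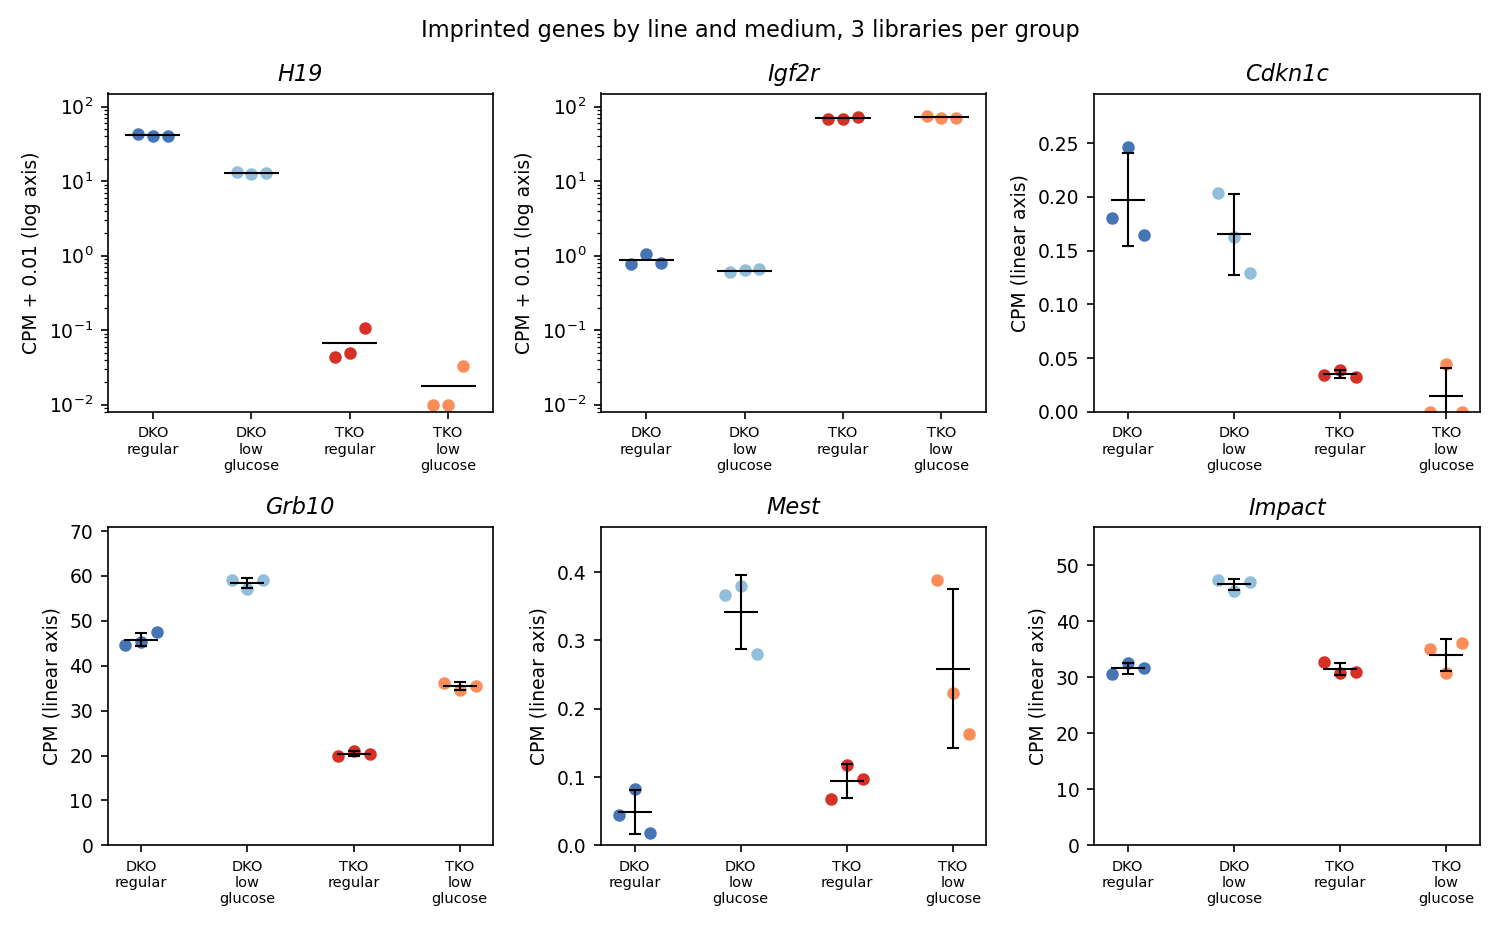
CPM of the 6 imprinted genes that reached 10 counts in any library, by line and medium. Each point is a library and each line the mean of 3, with bars of 1 SD on the linear axes; H19 and Igf2r are drawn as CPM + 0.01 on a log axis. H19 was near 41.4 CPM in DKO cells in regular medium and at the bottom of the axis in TKO cells, and Igf2r was the reverse, near 70 CPM in TKO and below 1.1 CPM in DKO.

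H19, a maternally expressed noncoding RNA, was abundant in DKO cells and almost absent from TKO cells. Its level in DKO cells in regular medium was 43.1, 40.2 and 40.7 CPM, from 1911, 1956 and 2225 counts. In DKO cells in low glucose it was 13.3, 12.3 and 12.8 CPM, from 654, 454 and 597 counts. All 3 low-glucose libraries were below all 3 in regular medium, as the choice of the gene required. The means were 41.4 ± 1.54 (SD, n = 3) and 12.8 ± 0.507 CPM, which is a 3.22-fold lower level in low glucose (log2 difference -1.69, SE 0.0586). Of 11988 genes tested, 20 had a lower log2 difference than H19, and 1 did among the 9282 genes that averaged 5 CPM or more. Since H19 was picked for this fall, its rank is a description and no support. TKO libraries held 1, 1 and 3 H19 counts in regular medium and 0, 0 and 1 in low glucose. At 3 counts or fewer in every TKO library, a difference between the media was not detectable at this depth. The ratio of DKO to TKO was 707 in regular medium, with a 95% counting interval of 302.9 to 2179, and 1370 in low glucose, with an interval of 245.6 to 54150. These intervals cover counting error only. Since these are bulk libraries, fewer cells with H19 RNA and less H19 RNA per cell cannot be told apart.

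The genes beside H19 did not follow it as a block. Within 500 kb of the H19 start, 10 other genes were tested. In DKO cells 4 of them rose and 2 fell in low glucose, at a threshold (adjusted p under 0.05) that 31.6% and 31.1% of all tested genes passed in those directions. Dusp8, 1 of the 4, passed the filter only through DKO cells in low glucose, so its rise was built into the selection. Between the lines in regular medium 2 were higher and 4 lower in TKO, against 28.3% and 33.4% of all tested genes. Igf2, which lies 88.7 kb away and shares enhancers with H19 in the embryo, and Nctc1, a noncoding RNA of the same region, were not among those tested: Nctc1 reached 1 count in any library and Igf2 reached 2.

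Among 10 genes listed as the non-imprinted neighbours of H19, 7 were tested. In DKO cells 2 rose and 2 fell in low glucose, which is 57.1% called against 62.7% of all tested genes, and in TKO cells 2 rose and 1 fell, 42.9% against 39.9%. Tnni2, the fast skeletal muscle form of troponin I, lies 136.3 kb from H19 and was the neighbour with the largest difference between the lines. It was at 21.8, 21 and 22.8 CPM in DKO cells in regular medium, 15.2, 14.7 and 15.4 CPM in DKO cells in low glucose, 0.881, 1.10 and 0.749 CPM in TKO cells in regular medium and 1.67, 1.97 and 1.12 CPM in TKO cells in low glucose. No group overlapped another. Tnni2 fell 1.44-fold in DKO cells in low glucose (log2 -0.53, SE 0.0769, adjusted p = 3.32e-05) and was 24.2-fold lower in TKO than in DKO cells in regular medium (log2 -4.60, SE 0.132, adjusted p = 4.87e-13). It rose in TKO cells in low glucose (log2 0.75, SE 0.213, adjusted p = 0.0119), a call that was lost without replicate 1 of TKO in low glucose (adjusted p = 0.0541), without replicate 3 of TKO in regular medium (0.0619) and with only the TKO libraries fitted (0.058), in a range of 0.000845 to 0.0619 over 19 alternatives. Ctsd, the lysosomal protease cathepsin D, rose 1.56-fold in DKO cells in low glucose, from 94.0 to 147 CPM (adjusted p = 8.83e-09), and rose 1.15-fold in TKO cells (adjusted p = 0.00225). Dusp8, a phosphatase of MAP kinases, held 11, 6 and 9 counts in DKO cells in regular medium and 24, 25 and 27 in low glucose, and since it passed the filter only through the latter group its call there was built into the selection. It is 1 of the 2 listed neighbours counted above as rising in DKO cells. Lsp1, a leukocyte actin-binding protein, was 2.14-fold lower in TKO cells in regular medium (adjusted p = 4.72e-07) and was not called between the media in DKO cells (log2 -0.19, adjusted p = 0.121). Mob2 and Mrpl23 lay at the threshold, Mob2 in DKO cells (log2 -0.12, adjusted p = 0.0469) and Mrpl23 in TKO cells (log2 -0.17, adjusted p = 0.0498), and with the replicate number as a block both were lost (0.0648 and 0.0607). Mob2 ranged from 0.0139 to 0.348 and Mrpl23 from 0.0142 to 0.184 over 19 alternatives each.

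**Figure D2:**
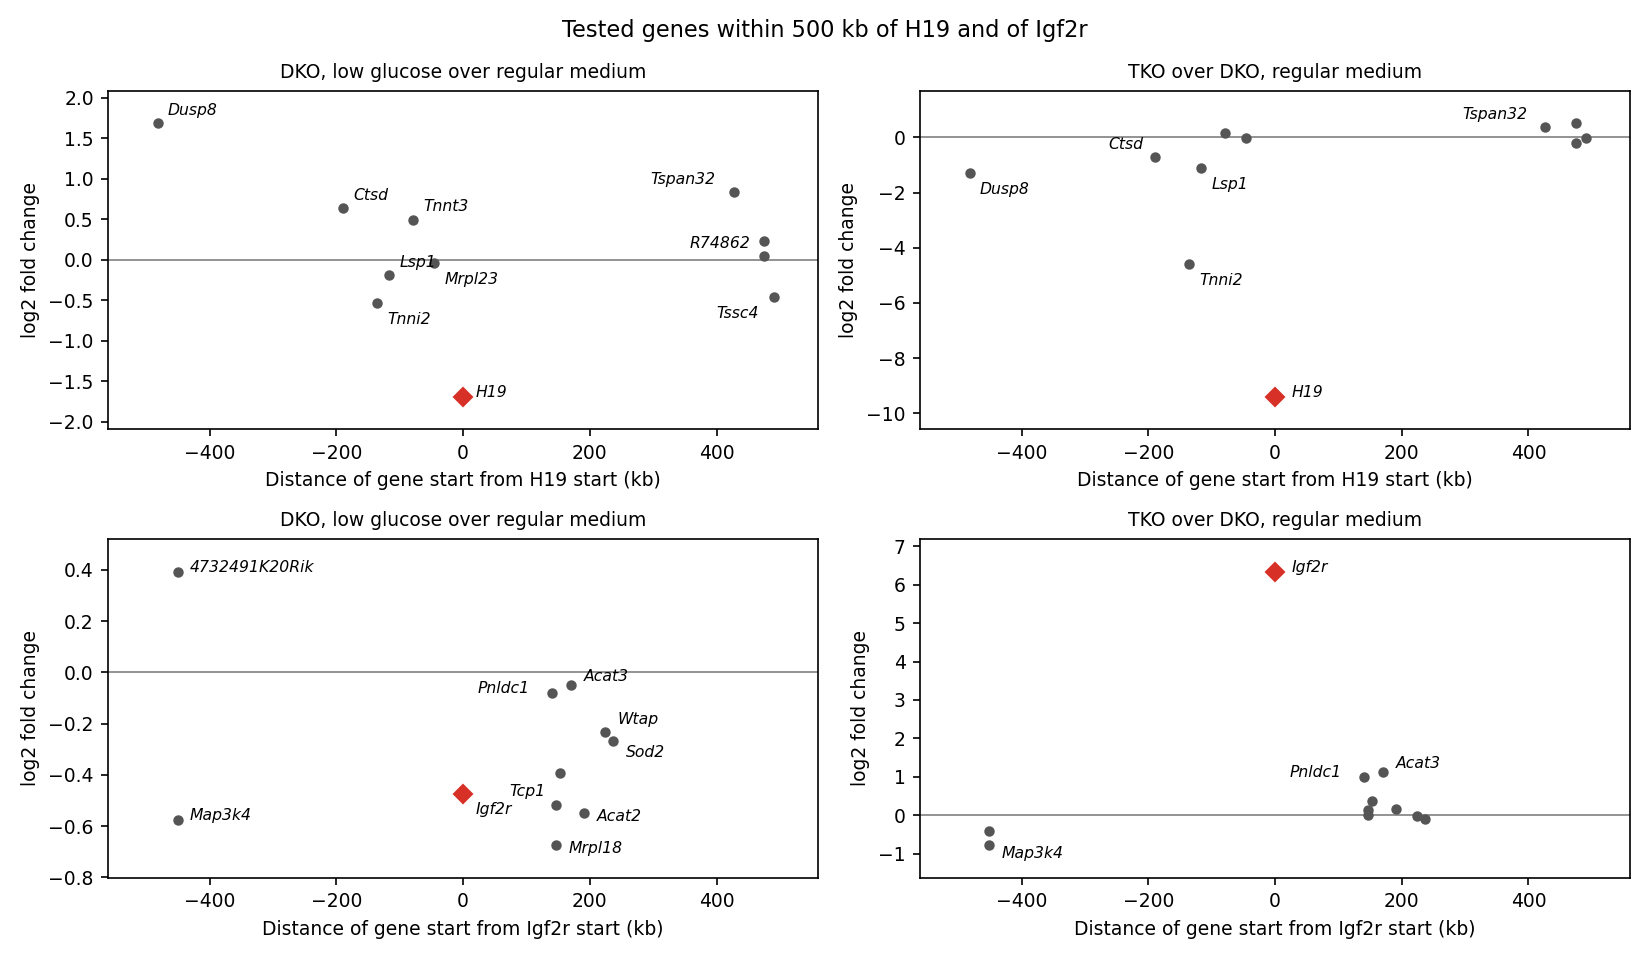
Log2 fold change of the tested genes within 500 kb of H19 (top) and of Igf2r (bottom), against the distance of their starts in kb, for low glucose over regular medium in DKO cells (left) and for TKO over DKO in regular medium (right). The red diamond is H19 or Igf2r; Airn is left out because it had no counts in DKO cells. Neighbours of H19 lie on both sides of 0 in each comparison, and with Airn left out no neighbour of Igf2r lies near its log2 difference of 6.33 between the lines.

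The genes whose pattern was most like that of H19 were Rcn2, Rdh10, Ipmk, Gpr65 and Zdhhc2, with Pearson correlations of log2 CPM from 0.995 to 0.996 over the 12 libraries, out of 9056 candidates, the tested genes averaging 5 CPM or more less predicted genes and Riken clones. The 12 libraries fall into 2 lines, and the high correlations follow mainly that split, so no test is given. All 5 were higher in DKO than in TKO cells and lower in low glucose than in regular medium in DKO cells by their means. Zdhhc2, a palmitoyltransferase, was at 52.8 and 33.8 CPM in DKO cells in regular and low-glucose medium and 1.84 and 1.94 CPM in TKO cells. Rdh10, a retinol dehydrogenase, was at 80.6, 58.4, 8.77 and 8.46 CPM in the same order. None of these 5 had as small a share of its DKO level left in TKO cells as H19.

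Igf2r had the opposite pattern between the lines. It encodes the mannose 6-phosphate and IGF2 receptor, which carries lysosomal enzymes and clears IGF2, and it lies on the minus strand at chr17:12682406-12769664. In the mouse its paternal copy is kept silent by Airn, a noncoding RNA that starts inside Igf2r and runs the other way. Igf2r was at 0.767, 1.03 and 0.787 CPM in DKO cells in regular medium (34, 50 and 43 counts) and 0.591, 0.624 and 0.645 CPM in low glucose (29, 23 and 30 counts). In TKO cells it was at 67.7, 68.1 and 73.3 CPM in regular medium and 74.1, 69.7 and 71.1 CPM in low glucose. Every TKO library was above every DKO library, and the 2 TKO groups overlapped. Igf2r was 80.7-fold higher in TKO than in DKO cells in regular medium (69.7 ± 3.15 against 0.861 ± 0.145 CPM, log2 6.33, SE 0.080, adjusted p = 1.04e-16) and 115-fold higher in low glucose (71.6 ± 2.24 against 0.620 ± 0.0274 CPM, log2 6.85, SE 0.0855, adjusted p = 7.46e-17). These comparisons share DKO libraries with the comparison of media in DKO cells.

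Between the media Igf2r moved little. In TKO cells the log2 difference was 0.04 (SE 0.0502, adjusted p = 0.554). In DKO cells Igf2r fell 1.39-fold in low glucose (log2 -0.47, SE 0.159, adjusted p = 0.0316), on 23 to 50 counts a library. That call was lost in 7 of 19 alternatives, over which the adjusted p ran from 0.0249 to 0.284: without replicate 2 of DKO in regular medium (0.208), without replicate 1 (0.0924) or replicate 2 (0.0545) of DKO in low glucose, with no filter on low counts (0.0725), in DESeq2 (0.0615), with only the DKO libraries fitted (0.0508) and in limma on log2(TPM + 1) (0.284). The difference between the lines in their response was 0.51 on the log2 scale (SE 0.167, adjusted p = 0.0397) and was lost in 10 of 18 alternatives, with adjusted p from 0.0301 to 0.235. Those 10 included DESeq2 size factors (0.0504), DESeq2 (0.0677), no filter (0.112), limma (0.143), and leaving out replicate 2 of DKO in regular medium (0.235), replicate 1 (0.0849), 2 (0.0528) or 3 (0.0658) of DKO in low glucose, replicate 1 of TKO in regular medium (0.0595) or replicate 1 of TKO in low glucose (0.0559).

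Airn was found only where Igf2r was high. It held 0 counts in all 6 DKO libraries, 42, 35 and 46 counts in TKO cells in regular medium and 64, 41 and 71 in low glucose. Against a floor of 3 counts over the 3 DKO libraries of a medium, Airn was at least 70.6-fold higher in TKO cells in regular medium and at least 73-fold higher in low glucose. No p is given for this difference, since Airn passed the filter only through the TKO groups. Its mean in TKO cells was 1.43 ± 0.0621 and 1.68 ± 0.142 CPM. The 2 media did not differ by the test in TKO cells (log2 0.21, SE 0.156, adjusted p = 0.342). Airn was singled out after its values were seen, since its mean over all libraries is under 1 CPM. It lies on the plus strand at chr17:12741311-12860136, and 114 of its 3597 exonic bases (3.2%) lie within the span of Igf2r, none of them in an Igf2r exon. The libraries were strand-specific per the labels, but the strand setting of the counting is not given in the sources used here, so reads of an antisense pair cannot be told apart over those bases.

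The promoter windows of Igf2r and Airn (RefSeq, GRCm38.p6, 250 bases before to 50 after the start) are shown because Airn was detected in TKO cells only and Igf2r was far higher there, with each CpG, the dinucleotide that carries DNA methylation, in capitals. The Igf2r window is chr17:12769657-12769956 on the minus strand and the Airn window is chr17:12741061-12741360 on the plus strand.
Igf2r promoter: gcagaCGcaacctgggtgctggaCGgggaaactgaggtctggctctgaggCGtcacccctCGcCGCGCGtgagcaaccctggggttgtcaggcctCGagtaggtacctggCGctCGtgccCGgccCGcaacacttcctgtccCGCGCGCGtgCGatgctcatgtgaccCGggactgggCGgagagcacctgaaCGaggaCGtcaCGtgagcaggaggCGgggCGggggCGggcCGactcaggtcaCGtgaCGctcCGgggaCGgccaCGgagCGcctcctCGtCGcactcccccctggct
Airn promoter: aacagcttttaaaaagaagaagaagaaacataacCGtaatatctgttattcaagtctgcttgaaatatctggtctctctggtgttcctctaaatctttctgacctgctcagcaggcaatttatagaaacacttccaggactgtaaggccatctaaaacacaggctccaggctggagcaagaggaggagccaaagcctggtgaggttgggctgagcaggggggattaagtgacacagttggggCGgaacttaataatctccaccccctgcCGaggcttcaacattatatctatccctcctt
The Igf2r window holds 34 CpG and is 70.7% G or C, and 7.7% of 32851 windows in the promoter table hold at least as many CpG. The Airn window holds 3 CpG and is 45.7% G or C, and 76.7% of windows hold at least as many. The median window holds 7. The motif GGGCGG, searched on both strands, occurs 3 times in the Igf2r window and 1 time in the Airn window, and 35.7% of all windows hold it. Windows were matched for 7 of the 10 genes. CpG beyond these windows were not counted, so the numbers do not describe the wider region around either start. Methylation was not measured here.

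Apart from Airn, the genes around Igf2r did not differ between the lines as Igf2r did. Of 11 other genes tested within 500 kb, 4 were higher and 2 lower in TKO cells in regular medium, against 28.3% and 33.4% of all tested genes. Airn was 1 of the 4, a direction built into the selection, since it passed the filter only through TKO cells. The remaining log2 differences ran from -0.77 at Map3k4 to 1.13 at Acat3, the latter not called (adjusted p = 0.0599). In DKO cells 6 of the 11 fell in low glucose and 0 rose, against 31.1% and 31.6% of all genes tested. Airn, with 0 counts in DKO cells, is among the 11 but could not be judged there. Those that fell included Tcp1, a chaperonin subunit (log2 -0.52, SE 0.0381, adjusted p = 4.07e-08), Mrpl18, a mitochondrial ribosomal protein (-0.67, SE 0.0427, adjusted p = 8.82e-09), and Acat2, an acetyl-CoA acetyltransferase (-0.55, SE 0.0659, adjusted p = 5.27e-06). Slc22a2 and Slc22a3, organic cation transporter genes that are imprinted in the placenta, held 0 and at most 1 count in any library.

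Grb10 changed with both line and medium. It encodes an adaptor that binds the insulin and IGF1 receptors and dampens their signal, and it lies on the minus strand at chr11:11930508-12038683. Grb10 was at 44.6, 45.3 and 47.4 CPM in DKO cells in regular medium and 59.0, 57.1 and 59.1 CPM in low glucose. In TKO cells it was at 19.8, 21 and 20.4 CPM in regular medium and 36.2, 34.6 and 35.6 CPM in low glucose. No 2 of the 4 groups overlapped. Low glucose raised it 1.28-fold in DKO cells (log2 0.35, SE 0.0407, adjusted p = 3.77e-06) and 1.74-fold in TKO cells (log2 0.80, SE 0.0459, adjusted p = 2.9e-08). The rise was larger in TKO cells, by 0.45 on the log2 scale (SE 0.0614, adjusted p = 0.00011). Grb10 was 2.25-fold lower in TKO than in DKO cells in regular medium (20.4 ± 0.594 against 45.8 ± 1.48 CPM, log2 -1.17, SE 0.0448, adjusted p = 1.31e-11) and 1.65-fold lower in low glucose (35.5 ± 0.838 against 58.4 ± 1.13 CPM, log2 -0.72, SE 0.0421, adjusted p = 1.26e-09). Ddc, the dopa decarboxylase gene next to Grb10, was also lower in TKO cells in regular medium, by 2.67-fold (log2 -1.42, SE 0.112, adjusted p = 4.78e-08), and rose in DKO cells in low glucose (log2 0.26, SE 0.0909, adjusted p = 0.0219).

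Cdkn1c, which encodes the cyclin-dependent kinase inhibitor p57 and lies on the minus strand at chr7:143458339-143461050, was too low to test. It held 8, 12 and 9 counts in DKO cells in regular medium, 10, 6 and 6 in DKO cells in low glucose, 1 in each TKO library in regular medium and 0, 1 and 0 in TKO cells in low glucose. Every DKO library held more counts than every TKO library. The ratio of DKO to TKO was 5.61 in regular medium, with a 95% counting interval of 1.739 to 28.78, and 17.7 in low glucose, with an interval of 2.858 to 729.7. In the authors' deposited table Cdkn1c had a log2 fold change of -2.47 in regular medium (adjusted p = 0.0357) and -3.97 in low glucose (adjusted p = 0.0103). An antisense gene shares 30.7% of the exonic bases of Cdkn1c. Kcnq1ot1, the paternally expressed noncoding RNA of the same imprinted cluster, was at 15.1 ± 2.30 CPM in DKO against 23.5 ± 4.21 CPM in TKO cells in regular medium (log2 0.63, SE 0.127, adjusted p = 0.000628) and fell in DKO cells in low glucose (log2 -0.39, SE 0.130, adjusted p = 0.018).

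Mest, a paternally expressed gene for a protein of the alpha/beta hydrolase family, was at a very low level and held more counts in low glucose. It lies on the plus strand at chr6:30723547-30748465. It held 2, 4 and 1 counts in DKO cells in regular medium and 18, 14 and 13 in low glucose, and 2, 3 and 3 counts in TKO cells in regular medium and 16, 5 and 7 in low glucose. In each line every low-glucose library held more than every library in regular medium. The ratio in DKO cells was 7.16, with a 95% counting interval of 3.206 to 18.82 (edgeR log2 2.76, SE 0.465). As Mest passed the filter through the higher of these groups, the p is given from the fit with no filter on low counts, where it was called (log2 2.80, SE 0.518, edgeR adjusted p = 6.38e-05). In TKO cells it was 2.82, with an interval of 1.25 to 7.149 (log2 1.46, SE 0.518, adjusted p = 0.0374). The TKO call was lost in 7 of 17 alternatives, with adjusted p from 0.0137 to 0.241: without replicate 1 of TKO in low glucose (0.241), without replicate 1 (0.122), 2 (0.0522) or 3 (0.0899) of TKO in regular medium, without replicate 2 of TKO in both media (0.0524), with no filter (0.0659) and in DESeq2 (0.081). Under limma and with only the TKO libraries fitted, Mest was too low to be tested, so those alternatives are not among the 17. The response did not differ between the lines by the test (log2 -1.30, SE 0.784, adjusted p = 0.241). The lines did not differ by the test in low glucose (log2 -0.37, SE 0.346, adjusted p = 0.348), and in regular medium the counts were too few to judge. Copg2, a coatomer subunit gene on the opposite strand, shares 23.1% of the exonic bases of Mest. It was at 71.0 ± 2.26 and 75.7 ± 1.34 CPM in DKO cells in regular and low-glucose medium and was not called between them (log2 0.09, SE 0.103, adjusted p = 0.454), and its part in the Mest counts was not tested.

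Impact, a paternally expressed gene for an inhibitor of the amino-acid-sensing kinase GCN2, rose in low glucose in DKO cells. It lies on the plus strand at chr18:12955852-12992950. Impact was at 30.6, 32.5 and 31.7 CPM in DKO cells in regular medium and 47.4, 45.4 and 47.0 CPM in low glucose, and at 32.7, 30.8 and 30.9 CPM in TKO cells in regular medium and 35.1, 30.7 and 36.1 CPM in low glucose. DKO libraries in low glucose were above all others, and the remaining 3 groups overlapped. The rise in DKO cells was 1.47-fold (46.6 ± 1.03 against 31.6 ± 0.964 CPM, log2 0.56, SE 0.0548, adjusted p = 6.94e-07). In TKO cells the log2 difference was 0.12 (SE 0.0581, adjusted p = 0.124). It was called without replicate 2 of TKO in low glucose (log2 0.18, adjusted p = 0.0098) and without replicate 2 of TKO in both media (log2 0.16, adjusted p = 0.015), in a range of 0.0098 to 0.365 over 19 alternatives. The response was smaller in TKO than in DKO cells by 0.44 on the log2 scale (log2 difference -0.44, SE 0.0798, adjusted p = 0.00095). Between the lines Impact was not called in regular medium (log2 -0.01, SE 0.0572, adjusted p = 0.946) and was 1.36-fold lower in TKO cells in low glucose (log2 -0.45, SE 0.0556, adjusted p = 4.79e-06). The 311 tested genes of chromosome 18 had a median log2 difference of TKO over DKO of 0.526 in regular medium and 0.609 in low glucose, against -0.057 to 0.006 and -0.052 to 0.043 for the other autosomes. The part of that chromosome-wide difference in the Impact values was not tested.

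Igf2, Plagl1, Peg3 and Snrpn, all paternally expressed, were at or near 0. Igf2, the fetal growth factor gene beside H19, held 0, 1 and 2 counts in DKO cells in regular medium, 2, 1 and 1 in low glucose and 0 in every TKO library. Plagl1, a zinc-finger transcription factor gene, held 3 counts in all, 1 in a DKO and 2 in a TKO library, both in low glucose. Peg3, another zinc-finger gene, held 1 count in a DKO library in low glucose. Snrpn, the gene of a spliceosomal Sm protein, held 0 counts in all 12 libraries, and so did Snurf, which shares its transcript. A count of 0 allows a level of up to 0.05494 to 0.08133 CPM in a DKO library and 0.06991 to 0.1342 CPM in a TKO library, from a limit of 3 counts. Snhg14, a long noncoding RNA of the Snrpn region, held 8 to 24 counts in the DKO libraries, 3, 0 and 14 in TKO cells in regular medium and 0, 0 and 13 in low glucose, and was not called between the lines (log2 -0.44, SE 0.835, adjusted p = 0.668 in regular medium).

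On the TPM scale, which divides by gene length and so allows genes to be compared, H19 was the highest of the 10 in DKO cells in regular medium, at 35.2 ± 1.11 TPM. Grb10 (16 ± 0.559 TPM) and Impact (15.2 ± 0.545 TPM) followed and overlapped. In DKO cells in low glucose Impact (22.8 ± 0.837 TPM) and Grb10 (20.9 ± 0.668 TPM) came first, without overlap, and H19 was at 11.2 ± 0.624 TPM. In TKO cells in regular medium the order was Impact (15.8 ± 0.444 TPM), Igf2r (14.3 ± 0.594 TPM) and Grb10 (7.44 ± 0.292 TPM), and in low glucose Impact (17.4 ± 1.64 TPM), Igf2r (15.1 ± 0.670 TPM), whose libraries overlapped those of Impact, and Grb10 (13.3 ± 0.486 TPM). Cdkn1c, Mest, Igf2, Plagl1 and Peg3 were below 0.3 TPM in every library. The most abundant gene of the set was therefore a different one in DKO cells in each medium. Since H19 was picked for its fall in DKO cells under low glucose, that change is a description and no support.

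**Figure D3:**
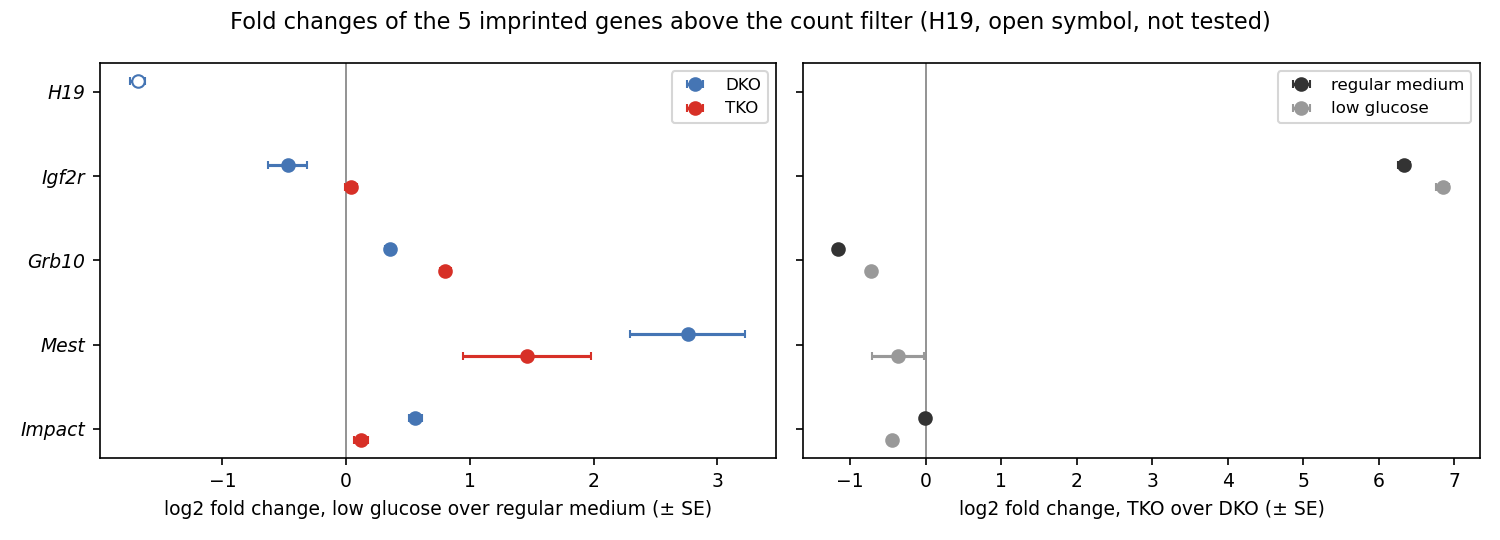
Log2 fold change with its SE for the tested imprinted genes, low glucose over regular medium in each line (left) and TKO over DKO in each medium (right). H19 is drawn once, open, as a description, and comparisons with too few counts are left out. Grb10 and Mest lie above 0 in both lines on the left, and Igf2r lies between 6 and 7 on the right.

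Counted without H19, the 4 tested members gave 3 higher, Mest among them, and 1 lower in low glucose in DKO cells, where 62.7% of all tested genes were called in either direction. In TKO cells 2 rose (22% of all tested genes did) and 0 fell (17.9%), with 39.9% of all tested genes called. Between the lines 1 was higher and 1 lower in TKO in regular medium (61.7% of all tested genes called) and 1 higher and 2 lower in low glucose, where 37.2% of all tested genes were higher and 37.4% lower (74.6% in all). The response differed between the lines for 3 of the 4. The log2 response in TKO minus that in DKO cells was above 0 for 2 and below 0 for 1. For Igf2r, 1 of the 2, the response was a fall in DKO cells (log2 -0.47, against 0.04 in TKO cells). Of all tested genes 29.6% differed, 17.6% above 0 and 12.1% below 0. With so many genes called in each comparison, and with Mest tested only because it was high in 1 group, these shares say nothing particular about the set.

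A wider list of 78 imprinted genes, 77 of them in the count table, was counted beside the 10. Here a gene is called imprinted because it is on the list, and whether it is imprinted in these cells was not tested. In these cells 21 of the 77 held 0 counts in every library, 20 peaked at 1 to 9 counts, and 36 reached 10 counts and were tested. In DKO cells 12 rose and 7 fell in low glucose, a called share of 52.8% against 62.7% of all tested genes, with a median log2 difference of 0.102 against 0.014 over all tested genes. In TKO cells the numbers were again 12 and 7, a share of 52.8% against 39.9%, with a median of 0.041 against 0.014. For 6 of the 36 no DKO library reached 10 counts and the filter was passed only through TKO cells, so 30 could be judged between the media in DKO cells. The 12 and 7 called in DKO cells all came from these 30, so 52.8% is lower than the share among the genes that could be judged. The median of 0.102 also includes the 6. No reading is therefore drawn from the DKO share against 62.7%. Between the lines 13 were higher and 11 lower in TKO in regular medium (66.7% called against 61.7% of all tested genes, median -0.038 against -0.014), and 12 higher and 13 lower in low glucose (69.4% against 74.6%, median -0.073 against -0.002). For the 6 genes that passed only through TKO cells, a higher level in TKO was built into the selection. The numbers and shares between the lines are therefore no support for anything about the list. The response differed between the lines for 11 of the 36, which is 30.6% against 29.6% of all tested genes.

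Of the wider list, the largest rises in low glucose in DKO cells by the naming rule were at Tnfrsf26, Osbpl5 and Tspan32, which lie in the same part of chromosome 7 as H19 and Cdkn1c. Tnfrsf26, a tumour necrosis factor receptor family member, was at 27.0, 27.6 and 29.2 CPM in DKO cells in regular medium and 74.3, 74.5 and 73.6 CPM in low glucose, and rose from 22.7, 21.7 and 22.7 CPM to 37.4, 38.6 and 43.2 CPM in TKO cells. All low-glucose libraries of a line were above those in regular medium. The rise was 2.65-fold in DKO (log2 1.41, SE 0.0533, adjusted p = 7.71e-11) and 1.78-fold in TKO cells (log2 0.83, SE 0.0577, adjusted p = 1.68e-07). Osbpl5, an oxysterol-binding protein gene, rose 2.10-fold in DKO cells, from 21 ± 0.704 to 44.0 ± 0.624 CPM (log2 1.07, SE 0.0479, adjusted p = 3.28e-10). Tspan32, a tetraspanin gene, rose 1.79-fold in DKO cells, from 31.9 ± 0.355 to 57.0 ± 1.08 CPM (log2 0.84, SE 0.0828, adjusted p = 7.51e-07). Outside that region, Gab1, a docking protein of growth factor receptors, rose 1.66-fold in DKO (14.4 to 23.9 CPM, adjusted p = 1.04e-06) and 1.95-fold in TKO cells (3.57 to 7.02 CPM, adjusted p = 2.35e-05). Pon3, a paraoxonase gene, rose 1.54-fold in DKO (adjusted p = 9.26e-09) and 1.39-fold in TKO cells (adjusted p = 1.89e-06), and H13, a signal peptide peptidase gene, rose 1.43-fold in DKO cells (adjusted p = 2.41e-08). Herc3, a ubiquitin ligase gene, rose 1.36-fold in TKO cells (adjusted p = 3.07e-05) and was at 19 and 19.9 CPM in DKO cells (adjusted p = 0.311).

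**Figure D4:**
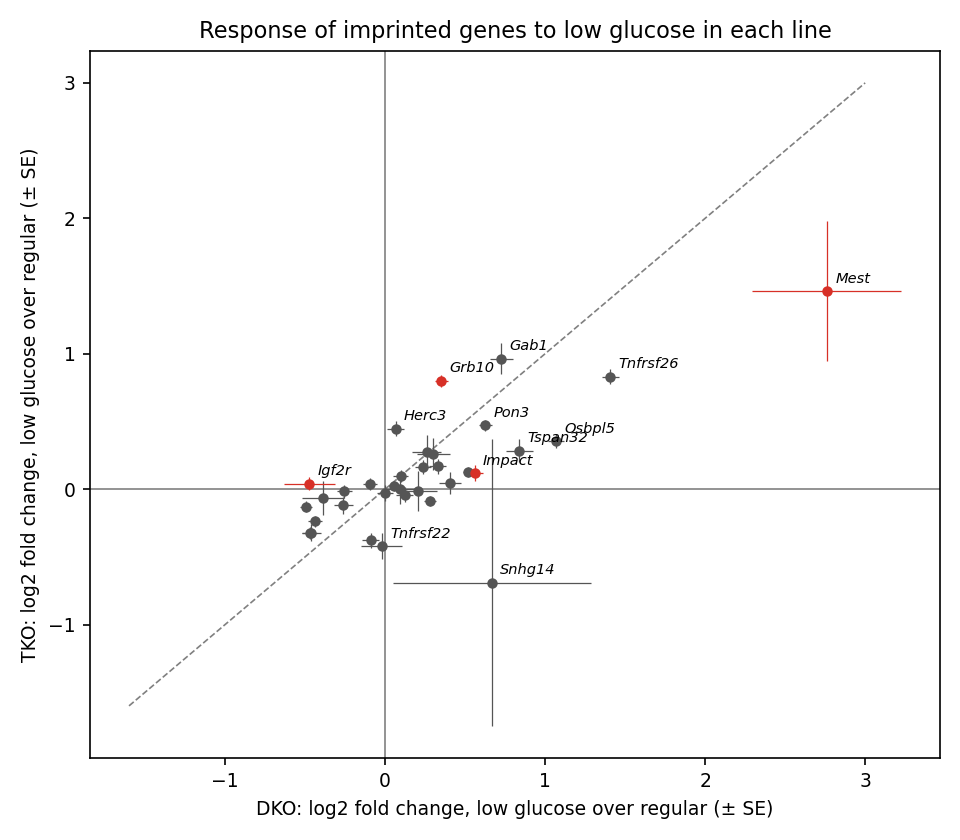
Log2 fold change of low glucose over regular medium in DKO (x axis) against TKO cells (y axis), each with its SE, for the 34 tested imprinted genes with a library of at least 10 counts in each line; H19 is left out. The dashed line marks equal response and members of the named set are red. Tnfrsf26, Osbpl5 and Mest lie right of the dashed line and Grb10 and Herc3 above it.

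Of the imprinted genes, 38 had at least 100 counts over the 6 libraries of either line, and 6 of these had at most 10 counts over the other line, a rule set after the values were seen. H19 was the only one of the 6 found in DKO cells, with 7797 counts against 6, so 2.63% of the 38 were DKO-only, against 1.29% of 11441 genes in all. The other 5 were found in TKO cells, which is 13.2% of the 38 against 1.74% of all genes: Peg13 (8525 counts in TKO against 5 in DKO), Nespas (890 against 0), Airn (299 against 0), Dlk1 (120 against 2) and Tnfrsf23 (106 against 6). As the list was chosen by its values, no test is given.

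Peg13, a paternally expressed noncoding RNA inside an intron of Trappc9, was at 40.2, 42.4 and 40.7 CPM in TKO cells in regular medium and 47.1, 52.3 and 44.3 CPM in low glucose. The 6 DKO libraries held 2, 1, 0, 1, 0 and 1 counts. The ratio of TKO to DKO was 2016 in regular medium, with a 95% counting interval of 689.4 to 9782, and 3119 in low glucose, with an interval of 863.1 to 25770. Trappc9, on the same strand at the same place, was lower in TKO cells in regular medium (27.4 ± 1.41 against 40.5 ± 0.772 CPM, log2 -0.56, SE 0.0538), so the 2 genes moved in opposite directions between the lines. Peg13 lies at chr15:72805600-72810324.

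Nespas, a noncoding RNA antisense to the Gnas locus at chr2:174281237-174295436, held 194, 167 and 167 counts in TKO cells in regular medium and 134, 74 and 154 in low glucose, and 0 in every DKO library. It was at least 303-fold higher in TKO cells in regular medium and at least 150-fold higher in low glucose, against 3 counts over the DKO libraries of a medium. In TKO cells it fell 1.82-fold in low glucose, from 6.19 ± 0.652 to 3.38 ± 0.180 CPM (log2 -0.86, SE 0.115, adjusted p = 0.000274). Gnas, which encodes the stimulatory G protein alpha subunit, was at 597 ± 3.22 CPM in DKO against 581 ± 14.9 CPM in TKO cells in regular medium and was not called (log2 -0.04, SE 0.0374, adjusted p = 0.385). Nespas shares 38.5% of its exonic bases with genes on the opposite strand, Gnas among them, and the part of those genes in the Nespas counts was not tested.

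**Figure D5:**
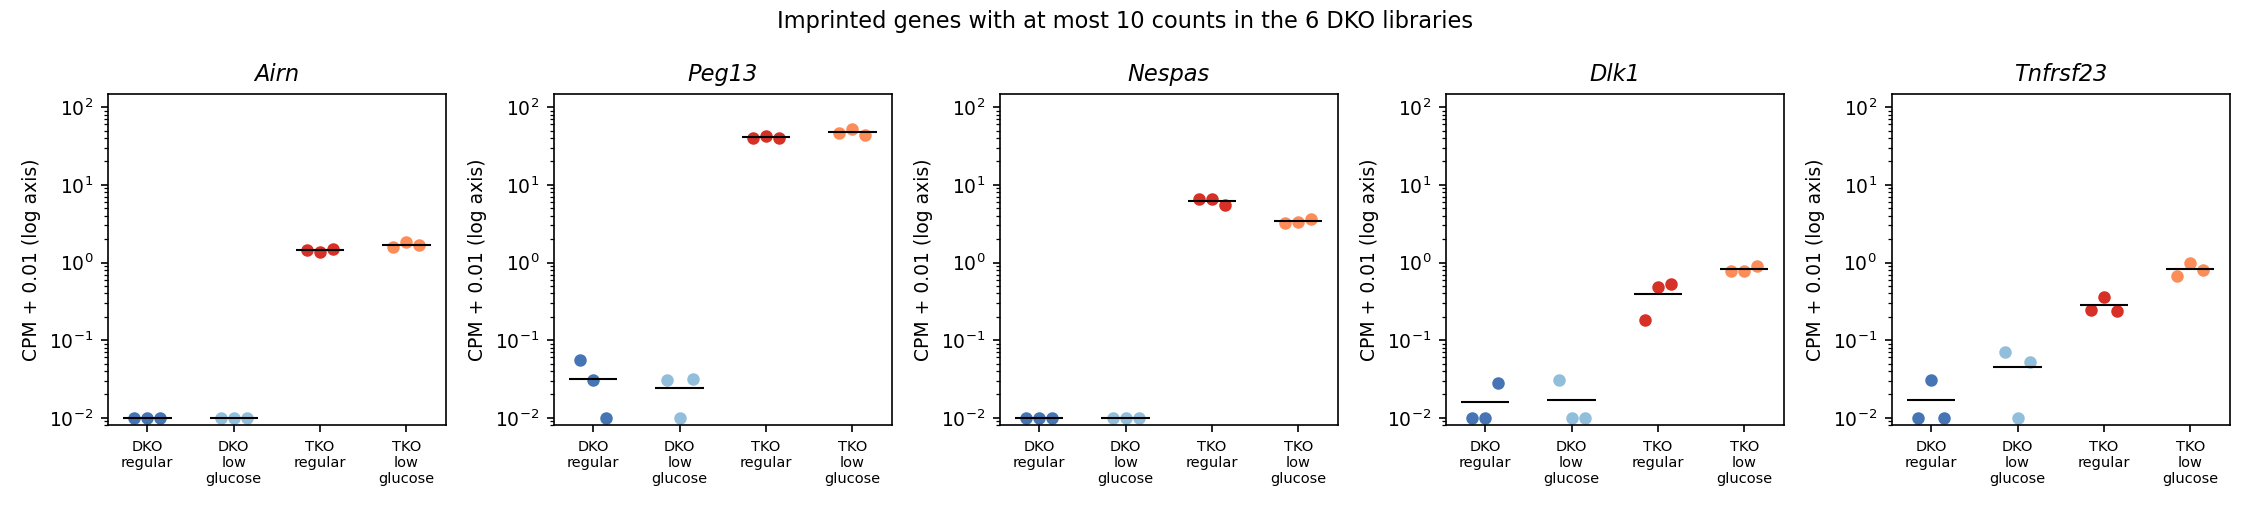
CPM + 0.01 on a log axis for the 5 imprinted genes with at most 10 counts over the 6 DKO libraries and at least 100 over the 6 TKO libraries. Each point is a library and each line the mean of 3; a point at 0.01 is a count of 0. Every TKO library lies above every DKO library for all 5, with Peg13 highest at 40.2 to 52.3 CPM.

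Other imprinted genes differed between the lines by smaller folds. Tnfrsf22, another receptor gene of the chromosome 7 region, was 4.77-fold higher in TKO cells in regular medium (15.8 ± 1.94 against 3.32 ± 0.325 CPM, log2 2.25, SE 0.109, adjusted p = 1.95e-10). Gab1 was 4.06-fold lower in TKO cells (3.57 ± 0.677 against 14.4 ± 0.248 CPM, log2 -2.02, SE 0.102, adjusted p = 2.97e-10). Jade1, a subunit of a histone acetyltransferase complex, was 2.34-fold lower (85.1 ± 2.89 against 199 ± 4.22 CPM, log2 -1.22, SE 0.0375, adjusted p = 9.97e-13). In low glucose Osbpl5 was 2.05-fold lower in TKO cells (21.4 ± 1.03 against 44.0 ± 0.624 CPM, adjusted p = 1.17e-10).

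Genes listed for DNA methylation and imprint maintenance, which include Tet1, Tet2 and Tet3, mostly fell in low glucose. Of 21 listed genes 17 were tested, and in DKO cells 2 rose and 12 fell, where 31.6% of all tested genes rose and 31.1% fell, with a median log2 difference of -0.499 against 0.014 over all tested genes. The 2 that rose there were Tet2 (log2 0.34, adjusted p = 0.00073) and Dnmt3a (log2 0.15, adjusted p = 0.00293). In TKO cells 1 rose and 10 fell, where 22% of all tested genes rose and 17.9% fell, with a median of -0.136 against 0.014. The response differed between the lines for 11 of the 17 (64.7% against 29.6% of all tested genes). The log2 response in TKO minus that in DKO cells was above 0 for 10 and below 0 for 1, against 17.6% and 12.1% of all tested genes. Uhrf1, which recruits the maintenance methyltransferase to newly copied DNA, was at 408, 393 and 402 CPM in DKO cells in regular medium and 187, 178 and 180 CPM in low glucose, and fell from 596, 640 and 608 CPM to 496, 528 and 476 CPM in TKO cells. The 4 groups did not overlap. The fall was 2.21-fold in DKO (log2 -1.14, SE 0.0455, adjusted p = 1.21e-10) and 1.23-fold in TKO cells (log2 -0.30, SE 0.0448, adjusted p = 0.00016). Hells, a chromatin remodeller needed for methylation, fell 2.42-fold in DKO cells (244 ± 2.32 to 101 ± 1.86 CPM, log2 -1.28, SE 0.0638, adjusted p = 8.95e-10). Cbx5 and Cbx3, genes of the HP1 heterochromatin proteins, fell 1.91-fold (674 to 353 CPM, adjusted p = 1.31e-09) and 1.63-fold (325 to 200 CPM, adjusted p = 4.32e-09) in DKO cells. Trim28, the corepressor that binds at imprinting control regions, fell 1.53-fold in DKO (581 to 379 CPM, adjusted p = 4.54e-07) and 1.29-fold in TKO cells (537 to 416 CPM, adjusted p = 0.000218). Uhrf1 and Hells are also genes of dividing cells, and cell division was not measured here. Between the lines 7 of the 17 were higher and 2 lower in TKO in regular medium (52.9% called against 61.7% of all tested genes, 28.3% higher and 33.4% lower). In low glucose 12 were higher and 2 lower (82.4% against 74.6% of all tested genes, 37.2% higher and 37.4% lower). Tet1, which passed the filter only through TKO cells, is among those higher in TKO in both media, a direction built into the selection. Dnmt1, the maintenance methyltransferase, was 2.11-fold higher in TKO cells in low glucose (714 ± 61.5 against 338 ± 14.5 CPM, log2 1.08, SE 0.0676, adjusted p = 2.69e-09), and Dnmt3b, which adds new methylation, was 1.92-fold lower in regular medium (13.1 ± 0.423 against 25.0 ± 0.436 CPM, log2 -0.94, SE 0.059, adjusted p = 3.75e-09). Zfp57, Dnmt3l and Dppa3, which act on imprints in the germ line and early embryo, held 0 counts in every library.

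The growth factor pathway on which Igf2, Igf2r and Grb10 act was partly expressed. Of 17 listed genes of the insulin-like growth factor (IGF) axis 7 were tested, and 3 rose and 1 fell in DKO cells in low glucose, while 3 rose and 0 fell in TKO cells. The called shares were 57.1% and 42.9%, near the 62.7% and 39.9% of all tested genes. Igf1r, the IGF1 receptor gene, had a mean of at most 0.0324 CPM in any group, whereas Insr, the insulin receptor gene, was at 52.6 ± 2.28 CPM in DKO against 34.6 ± 1.40 CPM in TKO cells in regular medium. Insr rose by 0.28 on the log2 scale in low glucose in both lines (adjusted p = 0.000638 in DKO and 0.00241 in TKO). Irs2, an adaptor of the insulin and IGF1 receptors, was at 26.1, 25.8 and 23.8 CPM in DKO cells in regular medium and 49.7, 49.9 and 49.9 CPM in low glucose, and rose from 19.9, 19.4 and 20.1 CPM to 36.8, 32.8 and 32.7 CPM in TKO cells. No groups overlapped between the media. The rise was 1.97-fold in DKO (log2 0.98, SE 0.0522, adjusted p = 1.6e-09) and 1.73-fold in TKO cells (log2 0.79, SE 0.057, adjusted p = 2.5e-07). Igf1 rose 1.77-fold in DKO cells, from 8.24 ± 0.223 to 14.6 ± 0.681 CPM (adjusted p = 1.42e-06). Irs1, the other main adaptor, was found mostly in TKO cells, with 741 counts against 6 in regular medium, a ratio of 213 with a 95% counting interval of 97.29 to 581.7. Igfbp4, an IGF-binding protein gene, was 4.48-fold higher in TKO cells in regular medium (50.2 ± 4.30 against 11.2 ± 1.0 CPM, adjusted p = 6.21e-12). The RNA-binding proteins named for binding Igf2 messenger RNA were lower there, Igf2bp3 by 2.08-fold (22.8 ± 1.20 against 47.4 ± 0.753 CPM, adjusted p = 4.99e-11) and Igf2bp2 by 4.11-fold (0.664 ± 0.0304 against 2.75 ± 0.218 CPM, adjusted p = 1.2e-07).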

How the data were processed

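Messenger RNA was sequenced from 12 libraries of B-ALL cells. Per the submitters' processing notes, the authors used STAR 2.7.3a, the mm10 build and DESeq2 1.22.1. The annotation and the strand setting of the counting are not given in the sources used here. The deposited count table gives whole-number read counts per gene symbol without normalization. The authors also deposited TPM for 23640 symbols. The authors' deposited comparison table of TKO against DKO holds log2 fold changes, p-values and, as scores with no fixed range, a mean expression and a test statistic.

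From the counts, edgeR 4.0.16 (R 4.3.3) fitted a quasi-likelihood model with 1 mean per group to all 12 libraries (8 residual degrees of freedom), with TMM scaling and filterByExpr by group (count minimum 10, total minimum 15). This left 11988 genes. Adjusted p-values (Benjamini-Hochberg) run over all of them, with calls under 0.05. Beside this, DESeq2 1.42.0, limma 3.58.1 on log2(TPM + 1), DESeq2 size factors, no filter, the compared groups alone, a replicate block and each library left out were run. Leaving out replicate 2 of TKO in both media was added after seeing the data. The statistics were tested on simulated data. Intervals and floors (3 counts) cover counting error only.

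The members and lists were chosen with earlier results of these data known. Named are all members; from the wider imprinted list up to 6 called genes per comparison of at least 1 CPM with the largest change; and from each other list up to 4 with the lowest adjusted p. Same-numbered libraries correlated at 0.324, 0.89 and 0.764 between the media in TKO cells. However, replicate 1 in regular medium correlated more with replicate 3 in low glucose (0.738), so the numbers do not pair all TKO libraries by the data. Replicate 2 in low glucose correlated at -0.816 and -0.82 with replicates 1 and 3 in regular medium. In DKO cells same-numbered libraries correlated at -0.018, -0.006 and -0.191, so the numbers do not pair them. Positions are from GENCODE M21 (mm10), which matched 24490 of 24982 symbols. Replicates differed beyond sampling noise, and none were identical.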

Additional observations from a re-analysis of the deposited data

Results flagged for a closer look

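The results in this section are the members, the genes of the naming rule and the markers named above whose response to low glucose differed between the lines by the interaction test of edgeR (adjusted p under 0.05). The value is the log2 response in TKO cells minus that in DKO cells. Among the named imprinted genes it was 0.51 for Igf2r (SE 0.167, adjusted p = 0.0397, responses -0.47 in DKO and 0.04 in TKO), 0.45 for Grb10 (SE 0.0614, adjusted p = 0.00011, responses 0.35 and 0.80) and -0.44 for Impact (SE 0.0798, adjusted p = 0.00095, responses 0.56 and 0.12). Igf2r rests on 23 to 50 counts in the DKO libraries and was lost in 10 of 18 alternatives, as given above with each of them.

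Of the wider imprinted list, Osbpl5 (-0.71, SE 0.0723), Tnfrsf26 (-0.58, SE 0.0783), Tspan32 (-0.56, SE 0.118), H13 (-0.39, SE 0.0523) and Atp10a (-0.37, SE 0.0525) had a higher response in DKO than in TKO cells, and Herc3 (0.38, SE 0.0777) a higher response in TKO cells. For Jade1 (0.37, SE 0.0526) the fall was smaller in TKO cells, at -0.13 against -0.49 in DKO cells. Atp10a, which encodes a phospholipid-transporting ATPase, had responses of 0.28 in DKO and -0.09 in TKO cells.

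Among the genes of DNA methylation and imprint maintenance the value was 0.85 for Uhrf1 (SE 0.0636), 1.06 for Hells (SE 0.0891), 0.76 for Dnmt1 (SE 0.0945), 0.66 for Cbx5 (SE 0.0681), 0.53 for Cbx3 (SE 0.0583), 0.39 for Cbx1 (SE 0.0520), another HP1 gene, 0.35 for Dnmt3b (SE 0.0846) and 0.25 for Trim28 (SE 0.0816, adjusted p = 0.0354). The fall was larger in DKO cells for each. Of the IGF axis it was -0.65 for Igf1 (SE 0.128) and 1.10 for Igf2bp2 (SE 0.239), the latter from 0.664 to 1.43 CPM in TKO cells. Of the neighbours of H19 it was -0.44 for Ctsd (SE 0.0591) and 1.29 for Tnni2 (SE 0.225), whose responses had opposite signs in the lines, -0.53 in DKO and 0.75 in TKO cells. Of the markers it was 0.48 for Dntt (SE 0.0632), -0.74 for Rag2 (SE 0.191) and 1.05 for Lyz2 (SE 0.247, responses -0.08 in DKO and 0.97 in TKO cells).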

How the results depend on the processing

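The number of members called between the media in DKO cells was 4 and became 2 under limma on log2(TPM + 1). In TKO cells it was 2 and became 1 with no filter on low counts, under the DESeq2 Wald test, with only the compared groups fitted and under limma, and 1 to 3 when each library was left out in turn. Mest was not tested under limma in either line, nor with only the TKO libraries fitted. With the replicate number as a block, the members called were 4, 2, 2 and 3 in the 4 comparisons and 3 for the interaction, and those of the wider imprinted list 19, 19, 24, 25 and 11, the same counts as without it, and of 107 single-gene values 2 (Mob2 and Mrpl23) were no longer called. In all, 179 of 188 counts stayed within 1.5 times the main count, and none of 2004 single-gene values changed sign while called, with 53 no longer called, 2 newly called and the H19 value of DKO cells at -1.58 under limma. DESeq2 size factors shifted the median of all genes by at most 0.046 log2 units. The interaction cannot be fitted on the libraries of 2 groups alone, so that alternative was not run. Depth limits Igf2, Plagl1, Peg3, Snrpn, Cdkn1c and Mest, and H19 in TKO cells.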
